A study of Mus musculus with 10 samples.

Results

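The genes described here are those of the major histocompatibility complex (MHC) antigen presentation system in the mouse heart. They were taken as every protein-coding gene whose symbol begins with *H2-*, together with *B2m*, *Cd74*, *Ciita*, *Tap1*, *Tap2* and *Tapbp*. This gave 40 of the 54532 genes in the deposited table. Of these, 28 belong to class I, 11 to class II, and 1, *H2-Ke6*, carries an *H2-* symbol but encodes no MHC chain. A difference was tested for the 21 whose mean over all hearts reached 0.5 FPKM (fragments per kilobase of transcript and per unit of sequencing depth), among 12602 genes tested in all. These 21 were 13 genes of class I and 8 of class II.

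MHC class I molecules are found on nearly every nucleated cell. Each is a heavy chain bound to beta-2-microglobulin (*B2m*), and it presents peptides from the cytosol that the TAP transporter (*Tap1*, *Tap2*) moves into the endoplasmic reticulum and tapasin (*Tapbp*) helps to load. MHC class II molecules are alpha and beta chain pairs made mainly by macrophages, dendritic cells and B cells, where the invariant chain (*Cd74*) escorts them and the DM and DO chains govern their peptide loading. Interferon-gamma raises the transcription of both classes, through *Nlrc5* for class I and *Ciita* for class II.

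All hearts came from *Rit1* M90I/+ mice, which carry a heterozygous, germline-recombined variant of the RAS-related GTPase RIT1 that causes Noonan syndrome. The animals were offspring of conditional *Rit1* M90I males and females of a CMV-Cre deleter line, so the variant was present in every tissue. Starting at 4 weeks of age, 5 mice received vehicle control and 5 received trametinib, an inhibitor of the kinases MEK1 and MEK2 (MEKi), at 1 mg/kg daily for 20 weeks. Heart poly(A) RNA was sequenced once per animal, no heart without the variant was part of the comparison, and no strain was given in the labels or methods. The comparison therefore asks how the MHC genes differed between vehicle and MEKi groups of mutant hearts. These groups also differed in sex-linked transcripts, as given below. The paper included male and female littermates, and the labels give no sex per heart.

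The depth of a heart was 13647167 to 18474002 assigned fragments, of which mitochondrial genes took between 24 and 35.0%, with the highest share in vehicle heart 3. All 7 cardiomyocyte markers examined were detected, and their summed level was 17201 ± 2125 FPKM in vehicle and 18568 ± 2120 FPKM in MEKi hearts (SD, n = 5 each). Sex-linked transcripts split the 10 hearts along the line of treatment. *Xist* was at 5.86 ± 0.671 FPKM in MEKi hearts and at 0.00132 ± 0.00296 FPKM in vehicle hearts, whereas the Y-linked *Ddx3y* was at 11.2 ± 0.714 FPKM in vehicle hearts and had no fragment in any MEKi heart (SD, n = 5). The Y-linked *Eif2s3y*, *Uty* and *Kdm5d* also had no fragment in MEKi hearts. For each MHC gene and each marker gene below, treatment and the difference in sex-linked transcripts cannot be told apart. Vehicle hearts 4 and 5 and MEKi heart 2 had more atrial transcripts than the others, and the summed level of 6 atrial markers ranged from 13.7 to 898 FPKM in vehicle and from 17.5 to 740 FPKM in MEKi hearts.

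The transcription of both classes depends on short proximal promoter elements, and the sequences of 4 members, a light chain, a class I heavy chain and a class II alpha and beta chain, show what the classes share. Each is the 200 bases before the RefSeq transcript start in GRCm38.p6, 5′ to 3′ on the strand of the gene, with every CCAAT box in capitals. The box is the binding site of the factor NF-Y, and it was searched as CCAAT on both strands, so it reads ATTGG where it lies on the other strand.
B2m promoter, chr2:122147487-122147686, plus strand: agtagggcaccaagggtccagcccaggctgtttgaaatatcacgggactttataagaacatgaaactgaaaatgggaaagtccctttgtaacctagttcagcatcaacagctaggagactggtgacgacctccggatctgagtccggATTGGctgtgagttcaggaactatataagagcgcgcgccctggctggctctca
H2-K1 promoter, chr17:34000334-34000533, minus strand: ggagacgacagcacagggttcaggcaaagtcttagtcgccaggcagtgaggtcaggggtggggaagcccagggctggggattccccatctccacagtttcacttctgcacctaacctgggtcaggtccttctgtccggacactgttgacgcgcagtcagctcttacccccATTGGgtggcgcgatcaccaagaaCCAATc
H2-Aa promoter, chr17:34287824-34288023, minus strand: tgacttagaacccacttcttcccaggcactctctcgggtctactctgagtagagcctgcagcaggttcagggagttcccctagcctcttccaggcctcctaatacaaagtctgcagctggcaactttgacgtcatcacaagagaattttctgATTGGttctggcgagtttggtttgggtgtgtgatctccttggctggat
H2-Eb1 promoter, chr17:34305667-34305866, plus strand: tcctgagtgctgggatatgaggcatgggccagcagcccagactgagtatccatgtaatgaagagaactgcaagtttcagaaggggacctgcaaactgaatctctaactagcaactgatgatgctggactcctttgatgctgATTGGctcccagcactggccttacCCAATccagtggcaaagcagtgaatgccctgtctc
*B2m* had 1 box, whose first base lay at −53 from the transcript start, and *H2-K1* had 2, at −30 and −6. In *H2-Aa* the box lay at −48, and *H2-Eb1* had boxes at −59 and −35. Of the 21 members tested, 17 were in the RefSeq promoter table, 11 of class I and 6 of class II. A CCAAT box was present in 10 of the 11 class I and in 6 of the 6 class II promoters, compared with 29.9% of all 27025 promoters of this length. *Tap1* was the class I promoter without one. Other motifs were searched on both strands, and their counts are given without a test, since several of the class I promoters belong to closely related heavy chain genes. GGGATTCCC, a kappa B motif, was present in 4 class I promoters (*H2-K1*, *H2-D1*, *H2-Q6* and *H2-Q7*), in none of the 6 class II promoters and in 0.215% of all promoters. The core of the interferon-stimulated response element was present in 3 of the 11 class I promoters (*B2m*, *H2-T22* and *H2-T23*), in 0 of the 6 class II promoters and in 2.33% of all. In the *B2m* promoter shown it begins at −139. GAANNGAAA, which lacks 1 letter of that core, was present in 6 other class I promoters (*H2-K1*, *H2-D1*, *H2-Q4*, *H2-Q6*, *H2-Q7* and *H2-M3*), in 0 of the 6 class II promoters and in 5.01% of all. The cAMP response element TGACGTCA was found in 1 class II promoter, that of *H2-Aa*, and in 1.54% of all promoters. These counts describe letters in a window, and occupancy of the motifs was not measured.

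No MHC gene tested differed detectably between MEKi and vehicle hearts. None of the 13 class I and none of the 8 class II genes passed an adjusted p of 0.05 in limma, where 10 of all 12602 genes (0.0794%) did. Without X, Y and mitochondrial genes, 0 of 12178 passed it in limma and 924 passed an unadjusted p of 0.05. At an unadjusted p of 0.05 the count was also 0 of 13 and 0 of 8, while 7.62% of all genes passed. In no member were the 5 vehicle hearts separated from the 5 MEKi hearts, which was the case for 1.64% of all genes. The median log2 fold change (MEKi minus vehicle) was 0.03 for class I and −0.01 for class II, beside 0.01 for all genes tested. In class I, 8 genes had a higher and 5 a lower mean log2 level in MEKi hearts, and in class II 3 were higher and 5 lower. The single values ran from −0.04 to 0.27 in class I and from −0.32 to 0.23 in class II.

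**Figure D1:**
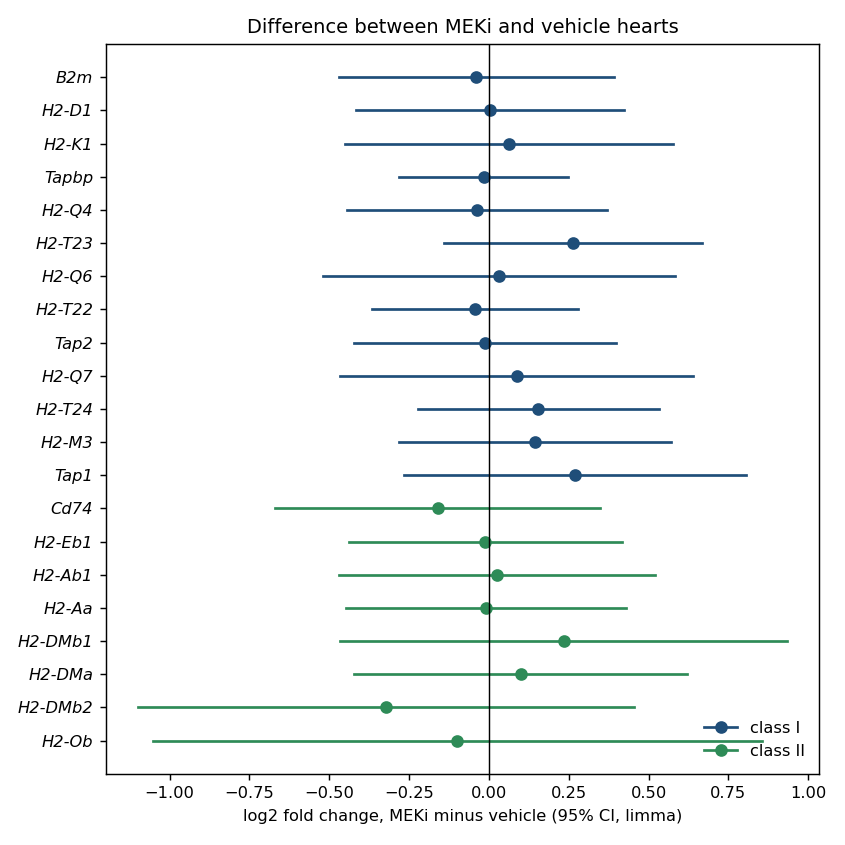
Log2 fold change of the 21 MHC genes tested (x axis, MEKi minus vehicle hearts, on the log2(FPKM + 0.1) scale; points, estimates; lines, 95% confidence intervals from limma; 5 hearts per group), ordered by mean level within class I and class II. Every interval includes 0, and the widest belong to *H2-DMb2* and *H2-Ob*, the genes with the lowest levels.

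The spread between hearts set what could be seen. The median residual SD on the log2 scale was 0.345 for the class I genes and 0.431 for the class II genes, compared with 0.246 for all genes tested. The 95% confidence intervals of class I genes lay between −0.52 and 0.81 and those of class II genes between −1.10 and 0.93, so differences of such a size lay within the error of 5 hearts per group. Since tissue RNA was sequenced, fewer cells of a type and less RNA per cell cannot be told apart in any of these values.

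*B2m*, the light chain common to all class I molecules (chromosome 2, 122147686 to 122153083, mm10 as for all genes here), was the most abundant member. Its level was 436, 413, 305, 402 and 551 FPKM in vehicle hearts 1 to 5 and 515, 545, 402, 303 and 311 FPKM in MEKi hearts 1 to 5. The groups overlapped over nearly their whole range, with means of 421 ± 87.8 and 415 ± 112 FPKM (SD, n = 5). On the log2 scale the difference was −0.04 (SE 0.20, adjusted p in limma = 0.973), and the 95% interval of the fold was 0.721 to 1.31.

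The classical heavy chains, which present peptides to CD8 T cells, were *H2-D1* (chromosome 17, 35262730 to 35267499) and *H2-K1* (chromosome 17, 33996017 to 34000333). *H2-D1* was at 138, 127, 91.5, 141 and 169 FPKM in vehicle hearts and at 159, 180, 126, 99.7 and 107 FPKM in MEKi hearts. *H2-K1* was at 107, 96.3, 64.7, 104 and 133 FPKM in vehicle hearts and at 137, 151, 89.6, 67.2 and 91.8 FPKM in MEKi hearts. Both were lowest in vehicle heart 3 and highest in MEKi heart 2, so the extremes lay in opposite groups. Their log2 fold changes were 0.00 (SE 0.19, adjusted p = 0.997) and 0.06 (SE 0.24, adjusted p = 0.964). The ratio of *H2-K1* to *H2-D1* was far steadier than either level, at 0.674 to 0.863 over the 10 hearts, with *H2-D1* above *H2-K1* in 10 of 10. Of all 100-base stretches of their annotated transcripts, 0.957% of those of *H2-K1* and 3.59% of those of *H2-D1* also occurred in another gene.

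Peptide supply and loading followed the same pattern. *Tap1*, a subunit of the peptide transporter, was at 4.07, 3.15, 1.80, 3.36 and 4.20 FPKM in vehicle hearts and at 4.59, 5.58, 3.92, 2.57 and 3.31 FPKM in MEKi hearts. This was the class I gene with the largest fold change, 0.27 (SE 0.25, adjusted p = 0.824), which was 0.07 without vehicle heart 3. Its partner *Tap2* had means of 7.71 ± 1.91 and 7.52 ± 1.36 FPKM and a log2 fold change of −0.01 (SE 0.19, adjusted p = 0.993). *Tapbp*, which holds empty class I molecules at the transporter, varied least of all members, from 20.1 to 29.0 FPKM, with means of 24.5 ± 3.52 and 24.2 ± 3.00 FPKM (SD, n = 5) and a log2 fold change of −0.02 (SE 0.12, adjusted p = 0.981). For *Tapbp*, 14.8% of 100-base stretches were shared, nearly all with the predicted gene *Gm19412*, so the counts of *Tapbp* are less certain.

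Of the 22 non-classical heavy chains, 7 were tested. *H2-T23* encodes Qa-1, the ligand of the inhibitory NK receptor CD94/NKG2A. It had the smallest unadjusted p of all members, 0.180, and was at 15.9, 17.1, 10.3, 19.6 and 22.1 FPKM in vehicle and 21.4, 24.6, 17.9, 17.5 and 18.4 FPKM in MEKi hearts. Vehicle hearts 1, 2 and 3 were below every MEKi heart, vehicle heart 3 by the most, and vehicle heart 5 was above 4 of them. The log2 fold change of 0.26 (SE 0.19, adjusted p = 0.774) was 0.09 without vehicle heart 3. *H2-T24* had a log2 fold change of 0.16 (SE 0.17, adjusted p = 0.872), or 0.03 without vehicle heart 1, with values of 3.24 to 6.17 FPKM in vehicle and 4.17 to 5.96 FPKM in MEKi hearts.

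The other 5 non-classical chains had log2 fold changes from −0.04 (*H2-T22*) to 0.14 (*H2-M3*, which presents N-formylated peptides). *H2-Q4* and *H2-Q6* were at about the level of *H2-T23*, with overall means of 18.7, 17.3 and 18.5 FPKM, and these 3 changed places from heart to heart. *H2-T22*, a ligand of certain gamma delta T cells, had a mean of 10.1 FPKM, and *H2-Q7* (Qa-2) and *H2-M3* had means of 4.96 and 4.87 FPKM. Sequence shared with other genes was larger in some of the non-classical chains than in the classical chains. It covered 31.5% of 100-base stretches in *H2-T22*, 14.1% in *H2-Q4*, 13% in *H2-Q6* and 12% in *H2-Q7*, so the levels of these genes are less certain. By how much was not measured. *H2-T23* shared 3.15% of its stretches, and *H2-M3* and *H2-T24* shared none.

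The remaining 15 non-classical chains stayed under the limit of 0.5 FPKM. *H2-Q10*, known as a secreted protein of the liver, had between 2 and 30 fragments per heart and at most 0.474 FPKM. *H2-M5*, *H2-Q2*, *H2-Q1*, *H2-M2*, *H2-M9* and *H2-T3* had at most 6 fragments in any heart and were listed at 0 in at least 5 of the 10. The 8 genes *H2-M1*, *H2-M11* and *H2-M10.1* to *H2-M10.6*, of which the M10 group is known from vomeronasal neurons, had no fragment in any heart. A count of 0 allows up to 3 fragments of a heart's total. These limits cover counting error only. *H2-Ke6*, which encodes a metabolic enzyme, had from 0 to 25 fragments per heart.

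The classical class II chains bind the peptides that CD4 T cells recognise, and their transcripts were abundant in all 10 hearts. *H2-Ab1* (chromosome 17, 34263209 to 34269418) was at 73.7, 56.8, 44.1, 52.1 and 93.1 FPKM in vehicle hearts and at 58.8, 90.6, 77.7, 49.5 and 47.5 FPKM in MEKi hearts. *H2-Aa* (chromosome 17, 34282744 to 34287827), whose product pairs with that of *H2-Ab1*, was at 52.8, 40.9, 38.5, 41.5 and 64.8 FPKM in vehicle hearts and at 47.4, 65.8, 55.7, 32.6 and 38.2 FPKM in MEKi hearts. *H2-Eb1* (chromosome 17, 34305877 to 34316199) was at 85.9, 65.8, 52.7, 63.0 and 99.6 FPKM in vehicle hearts and at 75.4, 95.9, 78.8, 53.0 and 59.6 FPKM in MEKi hearts. Vehicle heart 5 and MEKi heart 2 were the highest for all 3 genes, and the groups overlapped throughout. The log2 fold changes were 0.02 for *H2-Ab1* (SE 0.23, adjusted p = 0.986), −0.01 for *H2-Aa* (SE 0.20, adjusted p = 0.994) and −0.01 for *H2-Eb1* (SE 0.20, adjusted p = 0.993).

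The chains kept nearly fixed proportions. The ratio of *H2-Aa* to *H2-Ab1* was 0.658 to 0.874 and that of *H2-Eb1* to *H2-Ab1* 1.01 to 1.28 over the 10 hearts. *H2-Eb1* has *H2-Ea* as its natural alpha chain partner. The table holds that gene as the pseudogene *H2-Ea-ps*, which had 0 fragments in every heart. None of the 100-base stretches of *H2-Aa*, *H2-Ab1* and *H2-Eb1* were shared with another gene. *H2-Eb2* was near 0, with at most 9 fragments in a heart and fragments in 7 of the 10 hearts.

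*Cd74*, the invariant chain (chromosome 18, 60803848 to 60812646), was the most abundant class II gene. It was at 233, 179, 161, 151 and 300 FPKM in vehicle hearts and at 192, 248, 221, 130 and 127 FPKM in MEKi hearts. The MEKi mean of 184 ± 54.0 FPKM was below the vehicle mean of 205 ± 62.1 FPKM (SD, n = 5), but the groups overlapped. The log2 fold change was −0.16 (SE 0.23, adjusted p = 0.909), and it was −0.01 without vehicle heart 5. *Ciita*, the master activator of class II transcription (chromosome 16, 10480059 to 10528418), stayed under the limit of 0.5 FPKM with 20 to 80 fragments per heart. Its level was 0.280, 0.233, 0.229, 0.151 and 0.331 FPKM in vehicle and 0.220, 0.489, 0.286, 0.223 and 0.220 FPKM in MEKi hearts. The means of 0.245 ± 0.0672 and 0.288 ± 0.116 FPKM did not differ beyond their spread (two-sided exact permutation test, p = 0.603). The smallest p this test can give is 0.00794.

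The DM chains, which exchange the invariant chain fragment for peptide, were more than an order of magnitude below *Cd74*. *H2-DMa* had means of 4.95 ± 1.18 and 5.47 ± 1.94 FPKM (log2 fold change 0.10, SE 0.24, adjusted p = 0.950). *H2-DMb1* was at 4.04, 4.48, 2.37, 5.95 and 7.73 FPKM in vehicle and 6.25, 7.61, 7.70, 3.35 and 3.69 FPKM in MEKi hearts, with a log2 fold change of 0.23 (SE 0.32, adjusted p = 0.904), which was 0.0039 without vehicle heart 3. Its copy *H2-DMb2* was at 0.869, 0.852, 0.576, 1.18 and 0.563 FPKM in vehicle and 0.273, 0.750, 1.47, 0.458 and 0.521 FPKM in MEKi hearts. This was the member with the largest fold change in either direction, −0.32 (SE 0.36, adjusted p = 0.871), but 1 MEKi heart was above all vehicle hearts and 8 to 37 fragments per heart lay behind it. The value was −0.09 without MEKi heart 1 and −0.61 without MEKi heart 3. *H2-DMb1* and *H2-DMb2* share 11.3 and 10.3% of their 100-base stretches with each other, so fragments may have been divided between them.

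*H2-Ob*, the DO beta chain characteristic of B cells, ranged from 0.312 to 1.53 FPKM in vehicle and from 0.278 to 1.07 FPKM in MEKi hearts (log2 fold change −0.10, SE 0.44, adjusted p = 0.969). With a CV of 67.6% among vehicle hearts, it varied more than any other member tested in that group. *H2-Oa*, the DO alpha chain, was under the limit of 0.5 FPKM, with 2 to 24 fragments per heart.

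**Figure D2:**
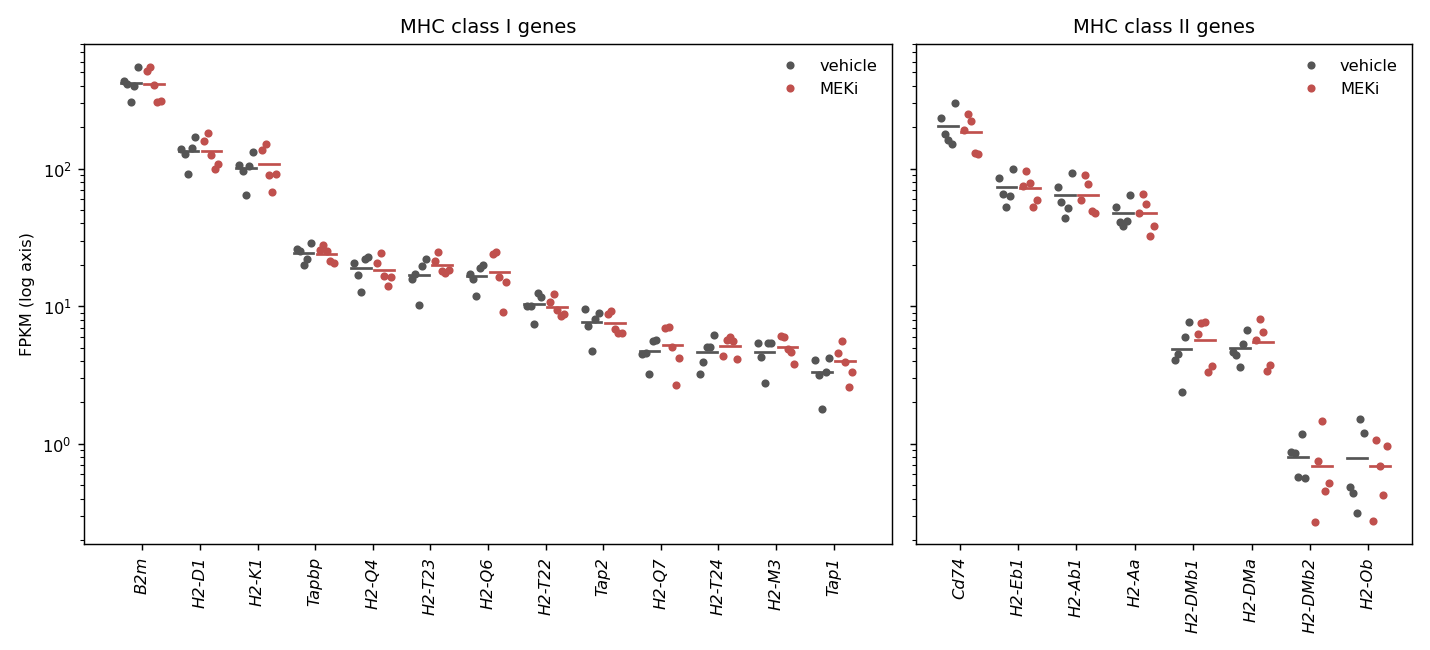
FPKM (y axis, log scale) of the 21 MHC genes tested in each heart (points; 5 vehicle and 5 MEKi hearts), with group means as bars, in order of mean level. *B2m* lies above all others and *H2-DMb2* and *H2-Ob* below 2 FPKM, and the points of the groups overlap for every gene.

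FPKM is corrected for transcript length, so levels of different members were set in order. It is not corrected for sequence shared with other genes. This covered 14.8% of 100-base stretches in *Tapbp*, 14.1% in *H2-Q4* and 13% in *H2-Q6*, so their places are less certain. The sequence *B2m*, *Cd74*, *H2-D1*, *H2-K1*, *H2-Eb1*, *H2-Ab1*, *H2-Aa*, *Tapbp* held in each of the 10 hearts for every neighbouring pair. The ranges over hearts were separate only between *B2m* and *Cd74*, between *H2-Aa* and *Tapbp*, and between *Tap1* and *H2-DMb2*. Further down, *H2-Q4* was above *H2-T23* in 4 hearts, *H2-T23* above *H2-Q6* in 6, and *H2-DMb1* above *H2-DMa* in 5, so these neighbours could not be ordered. *B2m* made up 54.2% of the summed FPKM of the class I genes, and *Cd74* 49.5% of that of class II. The class I sum was 768 ± 159 FPKM in vehicle and 775 ± 203 FPKM in MEKi hearts, and the class II sum was 402 ± 113 and 382 ± 106 FPKM (SD, n = 5).

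The members varied from heart to heart together. As deviations of log2(FPKM + 0.1) from each gene's mean over the 10 hearts, the class I median was −0.53 in vehicle heart 3 and −0.38 in MEKi heart 4, against 0.42 in MEKi heart 2 and 0.26 in vehicle heart 5. For class II it was −0.45 in vehicle heart 3 and −0.51 in MEKi heart 4, against 0.52 in MEKi heart 2 and 0.53 in vehicle heart 5. The median over all genes was between −0.01 and 0.01 in each heart. Vehicle heart 3 was the lowest heart for 9 of the 13 class I genes and below the mean for 12. MEKi heart 2 was above the mean for all 13 class I and all 8 class II genes, and vehicle heart 5 for 13 and 7. MEKi heart 1 was also high for class I (median 0.28, above the mean for 12 of 13 genes), and MEKi heart 5 was low for both classes (medians −0.17 and −0.36, below the mean for 12 of 13 and 7 of 8). High and low hearts were thus found in both groups. Vehicle heart 3 also had the highest mitochondrial share, 35.0%, and vehicle heart 5 and MEKi heart 2 were among the 3 hearts with high atrial transcripts. The part of either in the pattern was not tested. With the 3 atrial-rich hearts left out, vehicle hearts 1 to 3 and MEKi hearts 1, 3, 4 and 5 remained. In that fit 0 of the 21 members passed the threshold, where 5 of all 12602 genes did. The log2 fold change went from 0.23 to 0.48 for *H2-DMb1*, from 0.26 to 0.41 for *H2-T23* and from 0.16 to 0.31 for *H2-T24* (limma adjusted p = 0.900, 0.774 and 0.875).

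**Figure D3:**
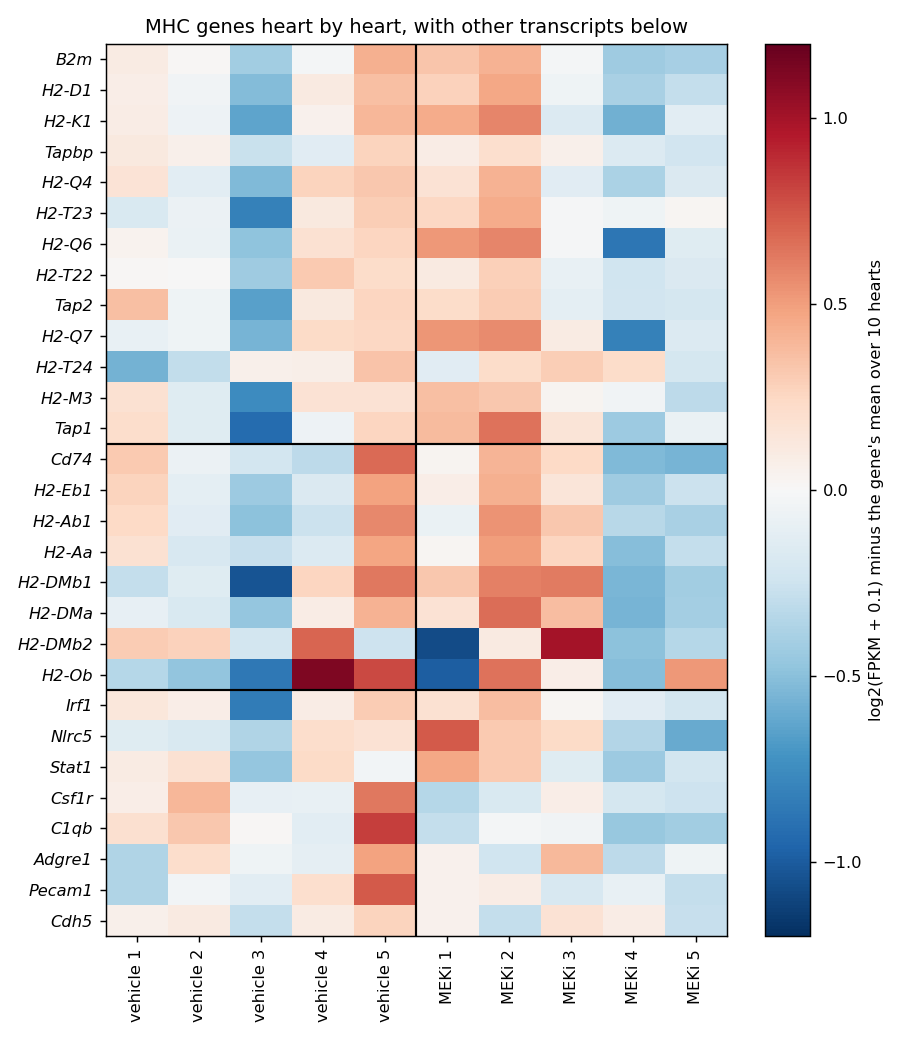
Deviation of log2(FPKM + 0.1) from the gene's mean over 10 hearts (colour) for the 21 MHC genes tested (rows, class I above class II) in each heart (columns, vehicle 1 to 5 and MEKi 1 to 5). Vehicle heart 3 and MEKi heart 4 are low and vehicle heart 5 and MEKi heart 2 are high over most rows, with *H2-T24*, *H2-DMb2* and *H2-Ob* as the rows that depart most.

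Across the 10 hearts the median correlation of log2 levels was 0.84 over the 78 pairs of class I genes, 0.73 over the 28 pairs of class II genes and 0.70 over the 104 pairs with 1 gene of each class. Over all pairs of genes tested it was 0.00. These pairs share the same 10 libraries and are given as a description. *H2-T24* stood apart from its class, with a median correlation of 0.06 with the other 12 class I genes. *H2-DMb2* and *H2-Ob* were the loosest of class II, at 0.28 and 0.39.

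For 25 pairs of single genes the correlation over hearts was tested by permutation (100000 resamples, two-sided), with Benjamini-Hochberg adjustment over the 25. The tightest were *H2-K1* with *H2-D1* (Pearson's r = 0.97, permutation p = 2e-05, adjusted p = 0.0005; Spearman's rho = 0.96, adjusted p = 0.0020; n = 10) and *B2m* with *H2-D1* (r = 0.97, permutation p = 8e-05, adjusted p = 0.0005; rho = 0.90, adjusted p = 0.00289). Without the 2 hearts farthest from the median of the first gene, r was 0.94 and 0.96. *Cd74* followed the chains it escorts, with r = 0.94 for *H2-Aa* (permutation p = 0.00011, adjusted p = 0.00055, rho = 0.93, adjusted p = 0.0026). With *H2-Eb1* and *H2-Ab1* r was 0.93 for each (permutation p = 0.0002, adjusted p = 0.000714, rho = 0.92, adjusted p = 0.00267 and 0.0026), and without 2 hearts r was 0.96, 0.94 and 0.90 for the 3 chains. Within the vehicle group the r of *Cd74* with these chains was 0.97, 0.94 and 0.96, and within the MEKi group it was 0.97, 0.97 and 0.96. *Cd74* and *B2m* themselves had r = 0.85 (permutation p = 0.00301, adjusted p = 0.00752; rho = 0.88, adjusted p = 0.00422; 0.76 without 2 hearts).

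*Ciita*, despite its low level, moved with *Cd74* (r = 0.73, permutation p = 0.0131, adjusted p = 0.0219, rho = 0.85, adjusted p = 0.0068; 0.76 without 2 hearts). For class I, *B2m* was compared with its regulators. Its r was 0.83 with *Irf1*, an interferon-induced activator of class I promoters (permutation p = 7e-05, adjusted p = 0.0005; rho = 0.92, adjusted p = 0.0026; 0.86 without 2 hearts). With *Nlrc5*, the class I transactivator, r was 0.80 (permutation p = 0.00617, adjusted p = 0.0133), but rho was 0.67 with an adjusted p of 0.0606, and r without 2 hearts was 0.82.

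Markers of the cells that could carry these transcripts gave r between 0.36 and 0.64. *Cd74* had r = 0.58 with the macrophage receptor *Csf1r* (permutation p = 0.0785, adjusted p = 0.0981, rho = 0.52, adjusted p = 0.169), which dropped to 0.16 without vehicle heart 5 and MEKi heart 5. With the macrophage gene *Adgre1* r was 0.42 (permutation p = 0.23, adjusted p = 0.256, rho = 0.27, adjusted p = 0.467), and 0.12 without the same 2 hearts. *Itgax*, expressed by dendritic cells, gave r = 0.64 (permutation p = 0.0472, adjusted p = 0.0656, rho = 0.68, adjusted p = 0.058), which was 0.85 without the same 2 hearts. The other tests of *Cd74* with a cell marker, *Cd79a* of B cells, *Cd3e* of T cells and *Pecam1* of endothelium, gave r of 0.41, 0.36 and 0.48 (permutation, adjusted p = 0.256, 0.32 and 0.19, rho = 0.50, 0.55 and 0.31). *B2m* had r = 0.37 with the leukocyte gene *Ptprc* (permutation p = 0.305, adjusted p = 0.318, rho = 0.26) and 0.58 with *Pecam1* (permutation p = 0.0689, adjusted p = 0.0906, rho = 0.47). Within the vehicle and MEKi groups, r for *B2m* was 0.85 and −0.20 with *Ptprc*, and 0.64 and 0.80 with *Pecam1*. For *Cd74* it was 0.76 and 0.39 with *Csf1r*, 0.44 and 0.36 with *Adgre1*, and 0.71 and 0.74 with *Itgax*. With *Cd79a*, *Cd3e* and *Pecam1* it was 0.43, 0.19 and 0.47 in vehicle and 0.36, 0.53 and 0.57 in MEKi hearts. Of the other pairs, *Cd74* had r of 0.80 with *H2-DMa* and 0.67 with *H2-DMb1* (permutation, adjusted p = 0.0133 and 0.0548). *B2m* had r of 0.93 with *H2-K1*, 0.93 with *Tapbp*, 0.85 with *Tap1*, 0.70 with *H2-T23* and 0.68 with the immunoproteasome gene *Psmb8* (permutation, adjusted p = 0.000812, 0.0005, 0.00178, 0.0208 and 0.0415). By rank, *H2-T23* (rho = 0.61) and *Psmb8* (rho = 0.59) did not pass (permutation, adjusted p = 0.098 and 0.108). Of the cell markers, *Cd3e* had 0 to 15, *Itgax* 3 to 41 and *Cd79a* 5 to 80 fragments per heart. The others had more, with 141 to 304 for *Ptprc*, 154 to 244 for *Adgre1*, 603 to 1044 for *Csf1r* and 2401 to 4554 for *Pecam1*. The part of counting error in the r of the cell markers was not tested. Whether the correlations with cell markers differ from those within the MHC genes was not tested either.

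**Figure D4:**
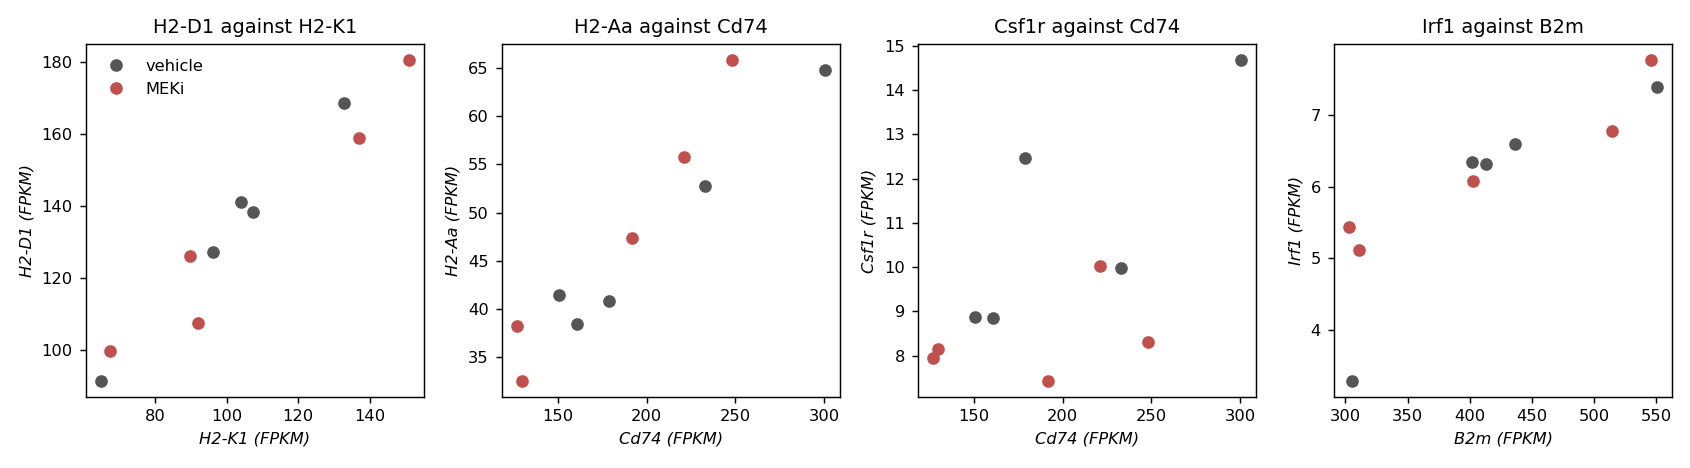
FPKM of 4 pairs of genes in the 10 hearts (points; vehicle and MEKi hearts by colour): *H2-D1* against *H2-K1*, *H2-Aa* against *Cd74*, *Csf1r* against *Cd74*, and *Irf1* against *B2m*. The first pair, the second and the fourth rise together in both groups, whereas for *Csf1r* the high value of vehicle heart 5 stands apart.

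The rest of the antigen presentation pathway was described with lists of genes. Of the 10 genes for class I loading and peptide trimming, which include the immunoproteasome, all 10 were tested, 6 were higher and 4 lower in MEKi hearts, and 0 passed the adjusted or the unadjusted threshold (median log2 fold change 0.11). Of the 17 genes for transcription of the 2 classes and interferon-gamma signalling, which include *Nlrc5* and *Irf1*, 12 were higher and 5 lower with 0 past either threshold (median 0.09). *Irf1* was at 5.99 FPKM in vehicle and 6.24 FPKM in MEKi hearts, and *Nlrc5* at 0.487 and 0.569 FPKM. Of the 16 interferon-gamma response genes, 14 were tested, and 10 were higher and 4 lower with 0 past either threshold (median 0.10).

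The class II compartment list holds the proteases, thiol reductase, ubiquitin ligases and costimulatory molecules of antigen-presenting cells. Of its 10 genes 8 were tested, 4 higher and 4 lower, and 0 passed the adjusted threshold. *Ctsl*, a lysosomal protease that degrades the invariant chain, passed the unadjusted one only (log2 difference 0.34, SE 0.13, adjusted p in limma = 0.563) and is named because it was the only gene of the list to do so. This is 1 of 8, beside 7.62% of all genes.

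Markers of the cell types of the heart were compared in the same way. All 12 macrophage markers had lower mean log2 levels in MEKi hearts (median difference −0.36), and 0 passed the adjusted threshold. Vehicle heart 5 was the highest heart for every one of them except *Cd14*, for instance at 398 FPKM for *Lyz2* and 14.7 FPKM for *Csf1r*. The part of this heart in the lower MEKi levels was not tested. At the unadjusted threshold 5 passed, *Csf1r*, *Fcgr1*, *C1qb*, *Lyz2* and *Itgam*, which are named for that reason, where 7.62% of all genes passed it. *Lyz2*, the macrophage lysozyme, was at 281 ± 67.0 FPKM in vehicle and 199 ± 22.0 FPKM in MEKi hearts (SD, n = 5), and its groups did not overlap, as in 1.64% of all genes (log2 fold change −0.48, SE 0.15, limma adjusted p = 0.456). The summed level of the list was 460 to 792 FPKM in vehicle and 372 to 463 FPKM in MEKi hearts. No defining marker was at 0 in all hearts. As for the MHC genes, treatment and the difference in sex-linked transcripts cannot be told apart for these markers. The class II median beside this was −0.01, and the ratio of *Cd74* to *C1qb* was 1.77 to 2.53 in vehicle and 2.12 to 3.13 in MEKi hearts. The difference in this ratio had an exact permutation p of 0.0476 (two-sided), which was 0.286 after adjustment over the 6 ratios tested. The ratio was chosen after its values were seen, and *C1qb* is among the genes named above for a lower level. This p therefore gives no support for a difference in *Cd74*. With *Lyz2* in place of *C1qb* the ratio was 0.584 to 0.998 in vehicle and 0.704 to 1.18 in MEKi hearts. Its exact permutation p was 0.151, or 0.452 after the same adjustment.

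For dendritic cells, 5 of 10 markers were tested, and all 5 were lower (median −0.23, 0 past either threshold). B cell markers gave 1 higher and 5 lower of 6 tested, with a summed level of 12.1 to 41.4 FPKM in vehicle and 13.7 to 33.2 FPKM in MEKi hearts. T and NK cell markers were scarce, with 3 of 12 tested and a summed level of at most 7.14 FPKM. Of the 6 leukocyte genes, 1 was higher and 5 lower with 0 past the adjusted threshold and 1 lower, *Laptm5*, past the unadjusted one. Of the 8 endothelial genes 2 were higher and 6 lower with 0 past either threshold. Of the 6 fibroblast genes 3 were higher and 3 lower with 0 past the adjusted threshold, and *Lum* (higher) and *Col1a1* (lower) passed the unadjusted one. These 3 genes are named after their values were seen. They are 1 of 6 leukocyte and 2 of 6 fibroblast genes, where 7.62% of all genes passed the unadjusted threshold. The part of these cell types in the MHC levels was not tested.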

How the data were processed

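The authors deposited FPKM per gene for 10 hearts. The submitters' processing notes name fastp, STAR 2.5, HTSeq 0.6.1 and mm10; their order and settings are not given in the sources used here. All 40 identifiers are in GENCODE M21, 30 with the same coordinates. FPKM multiplied by gene length gave whole fragments (tolerance 0.01) for 100% of values, which gave the depth. Genes whose mean reached 0.5 FPKM were fitted as log2(FPKM + 0.1) with limma 3.58.1 (R 4.3.3, eBayes with a trend, two-sided, Benjamini-Hochberg over 12602 genes), without covariates. Fold changes on this scale understate those of low genes. The fit was tested on simulated data. Correlations and exact tests used Python 3.11.15 and scipy 1.17.1.

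The members, gene lists and tests were chosen with earlier results of these data known. Full statistics are given for the classical chains, *B2m*, *Tap1*, *Tap2*, *Tapbp*, *Cd74*, *Ciita* and the 3 members of each class with the smallest p, with shorter accounts of the rest. The result of 1 of the 25 correlation pairs is not reported here. Another 11 *H2-* genes of other biotypes were left out, except *H2-Ea-ps*. Shared sequence was counted over exact 100-base stretches of GENCODE M21 transcripts, with matches on either strand. Promoters are from RefSeq, whose table held 34 of the 40 members. Alternatives were other pseudocounts, filters, scalings and variance models, a replicate block, and leaving out each heart, the atrial-rich hearts, or the X, Y and mitochondrial genes.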

Additional observations from a re-analysis of the deposited data

How the results depend on the processing

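In none of the 24 alternatives did a member of either class pass the threshold, and the lowest adjusted p of the members given with full statistics was 0.678 (*H2-T23*, TPM scale, limma). Of 333 such fold changes, 46 changed sign, all of genes near 0. On the TPM scale, which moved the median of all genes to 0.088, the log2 fold change was 0.0394 for *B2m*, 0.0695 for *H2-Aa*, 0.0672 for *H2-Eb1*, 0.0665 for *Tap2* and 0.0619 for *Tapbp*. With array weights it was 0.0026 for *B2m*, 0.0698 for *H2-Aa*, 0.0507 for *H2-Eb1* and 0.0096 for *Tapbp*. Quantile normalization gave −0.0374 for *H2-Ab1* and −0.0597 for *H2-D1*, limma-voom on recovered fragments −0.0019 for *H2-D1*, and leaving out the 3 atrial-rich hearts 0.0299 for *Tap2*. Leaving out each heart in turn gave −0.15 to 0.0639 for *B2m*, −0.13 to 0.12 for *H2-Aa*, −0.11 to 0.17 for *H2-Ab1*, −0.13 to 0.10 for *H2-D1*, −0.12 to 0.11 for *H2-Eb1*, −0.0886 to 0.22 for *H2-K1*, −0.18 to 0.0778 for *Tap2* and −0.0850 to 0.0473 for *Tapbp*.

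Over all genes, 10 passed the threshold. The count was 5 without the atrial-rich hearts, 18 with array weights, 2 at a mean of at least 5 FPKM, 0 without X, Y and mitochondrial genes, and 5 to 13 when each heart was left out, with 5 without vehicle heart 2. The causes were not tested. With a replicate block it was 4, and 0 members passed. Hearts with the same number did not deviate together (r from −0.15 to −0.02), so the block pairs nothing. The means of 5 hearts limit what is detectable, as the intervals of the single genes show.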

Other observations

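Of the 11 *H2-* genes of other biotypes, 3 had a mean of at least 0.5 FPKM. In 42 groups of 5 hearts, made up of the 21 members in each treatment group, no heart stood apart by Dixon's test, where chance alone would give about 2.1.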
